A study of Macaca mulatta with 4 samples.

Results

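The genes described here are 10 markers of oligodendrocyte precursors and newly formed oligodendrocytes, the early stages of the cells that make myelin in the brain. All 10 were found by their symbols among the 33618 genes of a table of read counts from prefrontal cortex of infant rhesus macaques (Macaca mulatta). PDGFRA, CSPG4 and SMOC1 mark precursors. GPR17, BCAS1, ENPP6, TNS3, ITPR2 and FYN are placed here with committed and newly formed cells, and GPR37 with maturing cells. As background, oligodendrocytes arise in steps from precursor cells, which divide in response to platelet-derived growth factor, commit to differentiation, pass through a short newly formed state and then wrap axons in myelin. Each step has its own marker genes, though several are also made by other cells. In the primate frontal cortex much of this differentiation takes place after birth.

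The table held 2 control libraries and 2 sevoflurane libraries, each numbered replicate 2 and replicate 3, all from animals labelled wild type. Animals of the sevoflurane group inhaled this general anaesthetic (roughly 2.5 to 3%) for 4 hours on 3 occasions, the first at about 7 days of age and the others 14 and 28 days later, counted from an event that the labels do not name. Their cortex was collected directly after the last occasion. The control group is labelled with no agent, and the sources used here do not describe its handling or the exact age at sampling. Whether the 2 libraries of a group stem from different animals is not stated, so the spread behind each p-value may be technical.

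Depth was 7793757 to 11706115 counts per library. Control replicate 3 was the shallowest and stood apart on the first principal component, at 59.6 against values from -32 to -3.1 in the other libraries. All 15 neuron markers examined passed the filter on low counts, with summed levels of 8275 to 11540 CPM, as did all 22 other precursor genes examined. CPM stands for counts scaled to a common library size, here after TMM scaling (trimmed mean of M values). It is not corrected for gene length, so levels are compared between libraries and not between genes.

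All 10 markers passed the filter, with 119 to 2238 counts per library. All 10 had a negative log2 fold change (sevoflurane against control), as did 50.3% of the 17693 genes tested. The median over the 10 was -0.74, against 0 over all genes. BCAS1 and GPR37 fell at an adjusted p under 0.05 over all genes tested (edgeR's quasi-likelihood test with Benjamini-Hochberg adjustment), and the other 8 markers did not pass. Over all genes 0.537% were called lower and 0.0622% higher. Both sevoflurane libraries lay below both controls for 9 of the 10 markers, an arrangement held by 20.4% of all genes, and 8 of the 10 were lower at an unadjusted p under 0.05, as were 5.57% of all genes. Other tests called more of them: 3 by limma-voom (0.582% of all genes called lower), and 5 each by DESeq2 (1.61%) and by edgeR's likelihood ratio test (1.72%). In bulk tissue, fewer cells of a type and less RNA per cell cannot be told apart.

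**Figure D1:**
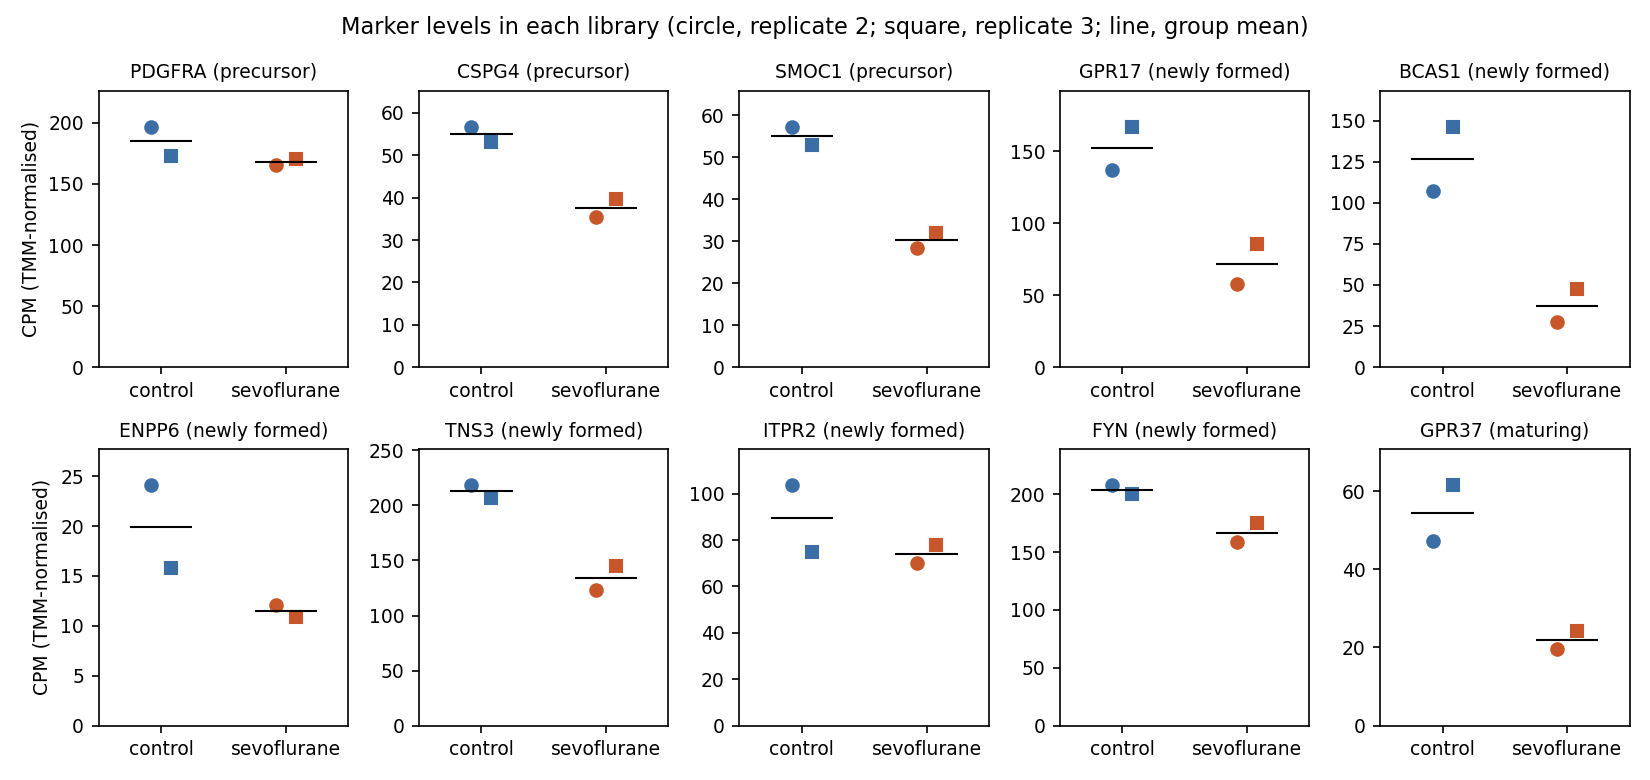
Level of each of the 10 markers in CPM (TMM-normalised, axes from 0) in the 2 control and 2 sevoflurane libraries, with circles for replicate 2, squares for replicate 3 and a line at each group mean. The lower control lies at least 1.60-fold above the higher sevoflurane library for BCAS1, GPR37, SMOC1 and GPR17. The groups nearly touch for PDGFRA and overlap for ITPR2.

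Among the precursor markers, PDGFRA is the receptor tyrosine kinase through which platelet-derived growth factor drives precursor division and survival. Its level was 197 and 173 CPM in control replicates 2 and 3, against 166 and 170.3 CPM in sevoflurane replicates 2 and 3, from 1306 to 2019 counts per library. The lower control lay only 1.02-fold above the higher sevoflurane library, so the groups were separate by less than the gap between the controls. The log2 fold change was -0.14 (SE 0.13, 95% interval -0.42 to 0.14, adjusted p = 0.795 by edgeR), the smallest of the 10 in size.

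CSPG4 encodes the NG2 proteoglycan on the surface of precursors, and it is also carried by pericytes. Its level was 56.8 and 53.2 CPM in control replicates 2 and 3, against 35.4 and 39.6 CPM in sevoflurane replicates 2 and 3. The groups did not overlap, and the libraries within each group were close together. The log2 fold change was -0.55 (SE 0.16, 95% interval -0.91 to -0.20, adjusted p = 0.239 by edgeR), which did not pass.

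SMOC1, a secreted calcium-binding protein of the extracellular matrix, had 57.3 and 52.8 CPM in control replicates 2 and 3, against 28.4 and 32.0 CPM in sevoflurane replicates 2 and 3. Every control was at least 1.65-fold above every sevoflurane library. The log2 fold change was -0.87 (SE 0.16, 95% interval -1.23 to -0.50, adjusted p = 0.0584 by edgeR), just short of the threshold. It passed by DESeq2 (adjusted p = 0.00467) and by edgeR's likelihood ratio test (0.000691), and it did not pass with any 1 library left out (adjusted p from 0.0562 to 0.308). The 3 precursor markers thus spanned -0.87 to -0.14. The interval of SMOC1 lay wholly below that of PDGFRA, and the difference between the genes was not tested.

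GPR17 is a G protein-coupled receptor found in committed precursors, where in mice it holds back maturation. It had 136.6 and 167 CPM in control replicates 2 and 3, against 57.5 and 85.3 CPM in sevoflurane replicates 2 and 3. The lower control was 1.60-fold above the higher sevoflurane library, and replicate 3 was the higher library in both groups. The group means were 151.8 ± 21.4 and 71.4 ± 19.6 CPM (SD, n = 2 each), and the log2 fold change was -1.09 (SE 0.20), with a 95% interval from -1.53 to -0.65. This did not pass by edgeR's quasi-likelihood test (adjusted p = 0.0519). It passed by limma-voom (adjusted p = 0.0343), by DESeq2 (4.65e-05), by the likelihood ratio test (7.87e-05) and with a stricter filter on low counts (0.0439). GPR17 was also called without control replicate 2 (-1.23, adjusted p = 0.0318) and without sevoflurane replicate 3 (-1.40, adjusted p = 2.12e-05), and was not called without control replicate 3 (-0.94, adjusted p = 0.102) or sevoflurane replicate 2 (-0.83, adjusted p = 0.0762). The GPR17 gene shares its span with LIMS2 in the RefSeq gene table, and the counting is not stated to use strand. LIMS2 had 48 and 63 counts in the controls and 91 and 81 after sevoflurane, against 673 to 1400 counts for GPR17.

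BCAS1, a protein of newly formed and early myelinating oligodendrocytes, moved most among the 10. It had 106.9 and 146 CPM in control replicates 2 and 3, against 27.2 and 47.3 CPM in sevoflurane replicates 2 and 3, from 319 to 1103 counts per library. The lower control was 2.26-fold above the higher sevoflurane library, a gap wider than the 1.37-fold spread of the controls or the 1.74-fold spread of the sevoflurane libraries. BCAS1 fell 3.39-fold, with group means of 126.6 ± 27.9 and 37.3 ± 14.2 CPM (SD, n = 2 each). On the log2 scale this was -1.76 (SE 0.25), with a 95% interval from -2.33 to -1.19 and an adjusted p = 0.0217 by edgeR. It stood 50th of the 17693 genes by p, and 0.554% of genes had as low a log2 fold change. BCAS1 was called with each library left out, from -2.21 without sevoflurane replicate 3 to -1.42 without sevoflurane replicate 2. Without control replicate 3 it had -1.52, at an adjusted p of 0.0498.

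ENPP6, a choline-specific phosphodiesterase that appears as oligodendrocytes form, was the least abundant in counts, with 119 to 247 per library. Its level was 24.1 and 15.8 CPM in control replicates 2 and 3, against 12.1 and 10.9 CPM in sevoflurane replicates 2 and 3. The groups did not overlap, but control replicate 2 was well above control replicate 3, which is the reverse of the order seen for BCAS1, GPR17 and GPR37. The log2 fold change was -0.81 (SE 0.26, 95% interval -1.39 to -0.23, adjusted p = 0.299 by edgeR). Leaving out control replicate 2 gave -0.46 and leaving out control replicate 3 gave -1.07, with no call in either case.

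TNS3, an adaptor of focal adhesions that is raised in immature oligodendrocytes in mice, had 218 and 207 CPM in control replicates 2 and 3, against 123 and 144.9 CPM in sevoflurane replicates 2 and 3. The groups were separate, with the lower control 1.43-fold above the higher sevoflurane library. The log2 fold change was -0.67 (SE 0.13, 95% interval -0.96 to -0.37, adjusted p = 0.0715 by edgeR), which did not pass. It passed by DESeq2 (adjusted p = 0.00331) and by the likelihood ratio test (0.00237). Without control replicate 3 the log2 fold change of TNS3 was -0.70.

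ITPR2 and FYN are also made by other cells. ITPR2 encodes a calcium channel of the endoplasmic reticulum that astrocytes carry too, and FYN a Src-family kinase that acts in oligodendrocyte differentiation and in neurons. ITPR2 had 103.7 and 74.9 CPM in control replicates 2 and 3, against 70.1 and 77.8 CPM in sevoflurane replicates 2 and 3, so the groups overlapped. Its log2 fold change was -0.27 (SE 0.18, 95% interval -0.67 to 0.12, adjusted p = 0.681 by edgeR), which became -0.02 when control replicate 2 was left out and -0.49 when control replicate 3 was. FYN had 208 and 199.7 CPM in the controls and 158 and 175 CPM after sevoflurane. Its groups were separate by 1.14-fold, and the log2 fold change was -0.29 (SE 0.12, 95% interval -0.57 to -0.01, adjusted p = 0.481 by edgeR).

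GPR37, a G protein-coupled receptor of maturing oligodendrocytes that in mice restrains their differentiation, had 47.1 and 61.5 CPM in control replicates 2 and 3, against 19.7 and 24.2 CPM in sevoflurane replicates 2 and 3. Every control was at least 1.95-fold above every sevoflurane library, more than the 1.31-fold spread of the controls. GPR37 fell from a mean of 54.3 ± 10.2 to 21.9 ± 3.20 CPM (SD, n = 2 each), or by 1.31 on the log2 scale (SE 0.20), with a 95% interval from -1.75 to -0.86 and an adjusted p = 0.0253 by edgeR. With each library left out, the log2 fold change of GPR37 ran from -1.49 to -1.10. GPR37 was not called when genes with few counts were kept in the test (adjusted p = 0.0516 by edgeR).

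**Figure D2:**
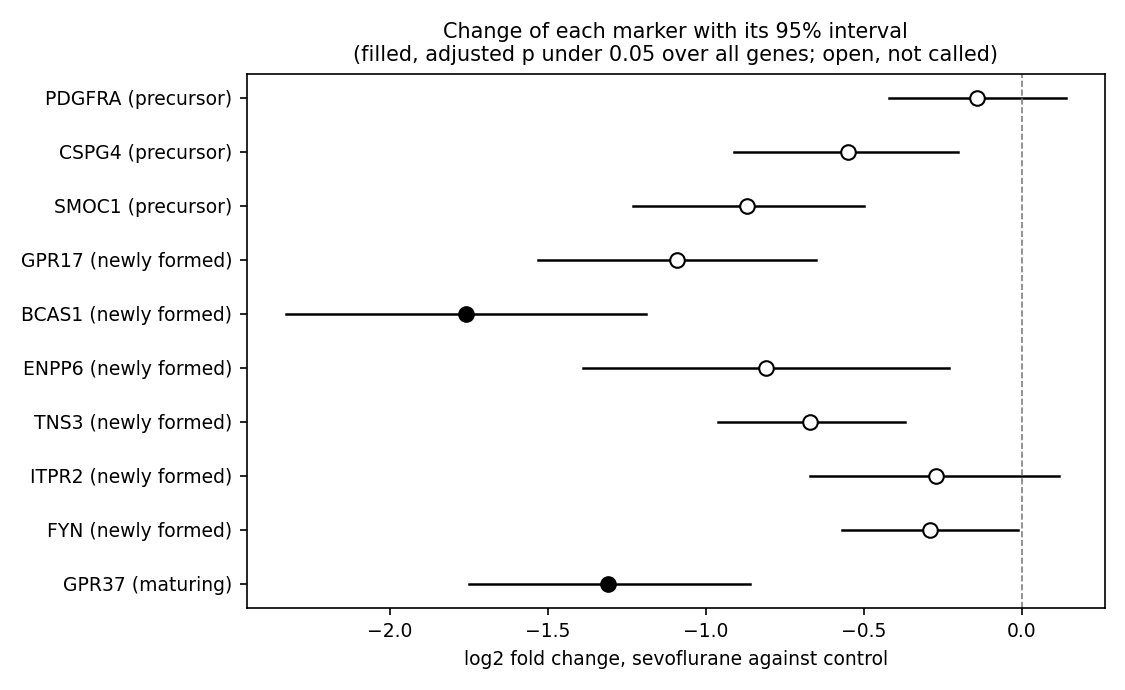
Log2 fold change of each marker, sevoflurane against control, with its 95% interval, ordered from precursor to maturing markers, with filled points for called genes and open points for the rest. BCAS1 at -1.76 and GPR37 at -1.31 are called, PDGFRA at -0.14 lies nearest to 0, and the intervals of PDGFRA and ITPR2 cross 0.

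By stage, the log2 fold changes ran from -0.87 to -0.14 for the 3 precursor markers (median -0.55), from -1.76 to -0.27 for the 6 committed and newly formed markers (median -0.74) and stood at -1.31 for GPR37. Of the 3 precursor markers, 0 were called by edgeR's quasi-likelihood test or limma-voom, 1 by DESeq2, 1 by the likelihood ratio test and 2 were at an unadjusted p under 0.05. Of the 6 committed and newly formed markers, 1 was called by edgeR's quasi-likelihood test, 2 by limma-voom, 3 by DESeq2, 3 by the likelihood ratio test and 5 were at an unadjusted p under 0.05. GPR37 was called by all 4. The stages overlapped: SMOC1, a precursor marker, had a more negative value than ENPP6, TNS3, ITPR2 or FYN. Differences between the stages were not tested, since 2 libraries against 2 cannot give an exact two-sided permutation p below 0.333 for a single value per library.

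Ratios of counts within a library do not depend on how the libraries are scaled. For every 1 count of PDGFRA there were 0.542 and 0.845 counts of BCAS1 in control replicates 2 and 3, against 0.164 and 0.278 in sevoflurane replicates 2 and 3. The ratio of GPR37 to PDGFRA was 0.239 and 0.355 in the controls and 0.118 and 0.142 after sevoflurane. Both later markers were thus lower relative to PDGFRA in each sevoflurane library than in either control. On the log2 scale the ratio to PDGFRA differed between the group means by -1.66 for BCAS1, -1.17 for GPR37, -0.97 for GPR17, -0.73 for SMOC1 and -0.12 for ITPR2, the one marker whose ratios overlapped between the groups. BCAS1 was also lower relative to GPR17, with 0.782 and 0.876 counts per count of GPR17 in the controls and 0.474 and 0.555 after sevoflurane. Against CSPG4 in place of PDGFRA the differences were smaller, at -1.25 for BCAS1, -0.75 for GPR37 and -0.56 for GPR17. ITPR2 and FYN then had positive differences, at 0.30 and 0.26.

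**Figure D3:**
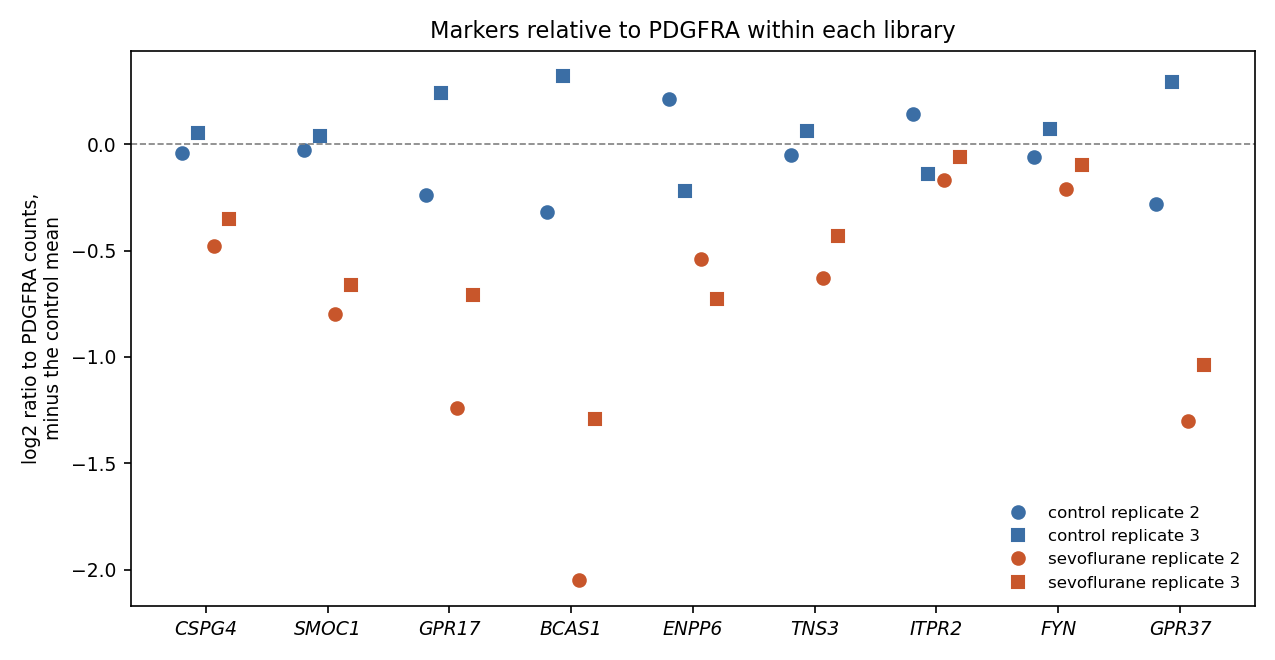
Log2 ratio of each marker's counts to PDGFRA counts in each library, shown relative to the control mean, with blue for control, orange for sevoflurane, circles for replicate 2 and squares for replicate 3. BCAS1 has the widest gap, with a difference of -1.66 between the group means, and ITPR2 overlaps.

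The reference genes are not confined to precursors, since PDGFRA is also made by fibroblasts of the meninges and vessels and CSPG4 by pericytes. All 16 meningeal and perivascular fibroblast markers had positive log2 fold changes (median 1.06), of which 1, the GABA transporter SLC6A13, was called (1.43, adjusted p = 0.0465 by edgeR). Their summed level was 288 and 150.4 CPM in control replicates 2 and 3, against 717 and 258 CPM in sevoflurane replicates 2 and 3, so sevoflurane replicate 2 was the highest and control replicate 3 the lowest. The number of these markers called was 0 without either control replicate, 1 without sevoflurane replicate 2 and 7 without sevoflurane replicate 3, and SLC6A13 was not among the calls without sevoflurane replicate 2 (adjusted p = 0.117). PDGFRA itself had 166 CPM in sevoflurane replicate 2, the lowest of its 4 values, and none of the 16 fibroblast markers was at 0 in every library. The 11 tested pericyte and smooth muscle markers had a median of -0.02, with 0 called by edgeR, DESeq2 or limma-voom, 1 at an unadjusted p under 0.05 (MYH11 of smooth muscle, 1.35) and 1 called without sevoflurane replicate 3. They had summed levels of 479 and 490.4 CPM in the controls and 492 and 442 CPM after sevoflurane. The part of these cells in the levels of PDGFRA and CSPG4 was not tested.

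Other genes of the lineage were read from lists that exclude the 10 markers. Of 22 other precursor genes, 3 fell and 19 were not called. The median log2 fold change of the 22 was -0.65, with values from -1.41 to 0.17. For 15 of them both sevoflurane libraries lay below both controls, an arrangement held by 20.4% of all genes. The genes of this list did not move alike: 21 had negative values and 1, SOX5, a positive one (0.17). PCDH15 (-0.02), MMP16 (-0.15), TNR (-0.16) and LUZP2 (-0.17) lay near 0. OLIG1 (-1.26), SOX8 (-0.93) and COL9A1 (-0.91), also not called, were lower. The transcription factor SOX10, which acts throughout the lineage, fell from 151.6 ± 30.6 to 56.8 ± 7.73 CPM (log2 fold change -1.41, adjusted p = 0.0141 by edgeR). OLIG2, which specifies the lineage, fell too (-1.19, adjusted p = 0.0416), as did the guidance molecule SEMA5A (-0.88, adjusted p = 0.0213). OLIG2 lost its call without control replicate 3 (adjusted p = 0.0824), when libraries were scaled by their totals (0.0584) and when all genes were kept (0.0795), and SEMA5A was not called without sevoflurane replicate 2 (0.0782). Of the 22, 7 were called without control replicate 2 and 7 by DESeq2, all lower.

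Of 15 tested newly formed oligodendrocyte genes, 4 fell and 11 were not called, with a median of -0.86. MYRF, the transcription factor that switches on myelin genes, fell from 159 ± 29.5 to 49.9 ± 17.9 CPM (-1.67, adjusted p = 0.0213 by edgeR). The semaphorin receptor PLXNB3 (-1.44, adjusted p = 0.0213), UGT8, which makes the myelin lipid galactosylceramide (-1.64, adjusted p = 0.0253), and the transcriptional regulator ZNF488 (-1.38, adjusted p = 0.0432) fell too. UGT8 (adjusted p = 0.0609) and ZNF488 (0.0885) were not called without control replicate 3, where 2 of the list were called. With no filter UGT8 (adjusted p = 0.0543) and ZNF488 (0.0845) also missed the threshold, as did ZNF488 when libraries were scaled by their totals (0.0602). Without control replicate 2, or without sevoflurane replicate 3, 7 were called. Of the 19 tested mature oligodendrocyte genes, 14 fell and 5 were not called, with a median of -1.91. All 19 had both sevoflurane libraries below both controls, as did 20.4% of all genes. OPALIN, a membrane protein of myelinating oligodendrocytes, fell from 170.1 ± 31.5 to 45.2 ± 6.10 CPM (-1.91, adjusted p = 0.00435 by edgeR). CLDN11, a tight junction protein of myelin (-1.97, adjusted p = 0.0062), and the lipid carrier APOD (-1.60, adjusted p = 0.0066) fell too.

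The mean deviation of log2 CPM from the 4-library mean described the order within each group. For the 3 precursor markers it was 0.33 and 0.19 in control replicates 2 and 3, against -0.32 and -0.20 in sevoflurane replicates 2 and 3. For the 6 committed and newly formed markers it was 0.45, 0.37, -0.55 and -0.26 in the same order. For the mature genes it was 0.55, 1.25, -1.16 and -0.65, so control replicate 3 was the highest library for mature genes but not for the precursor markers.

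**Figure D4:**
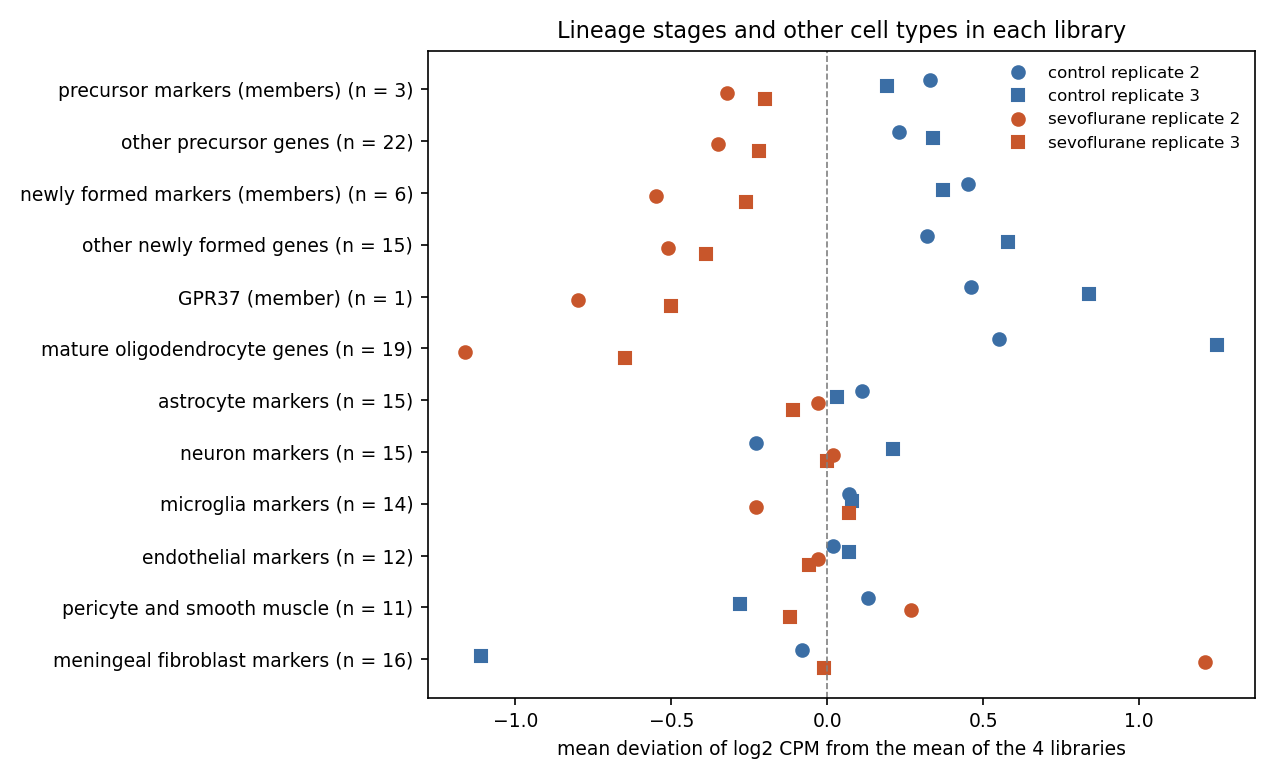
Mean deviation of log2 CPM from the mean of the 4 libraries for the 10 markers by stage, for other genes of the lineage and for markers of other cell types, with n genes per row, blue for control and orange for sevoflurane. Mature oligodendrocyte genes spread from -1.16 to 1.25, precursor markers from -0.32 to 0.33, and meningeal fibroblast markers run in the reverse order of the mature genes.

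Cell types that share ITPR2, FYN or TNS3 were read in the same way. Of 15 astrocyte markers GFAP, the astrocyte intermediate filament, fell (-1.41, adjusted p = 0.00928 by edgeR) and 14 were not called, with a median of -0.05. Their summed level was 12830 and 11150 CPM in the controls and 9341 and 8975 CPM after sevoflurane, and that of the 14 markers other than GFAP was 7585 and 7275 CPM against 7810 and 7077 CPM. Of the 15, 3 were called without control replicate 3. Of 14 microglia markers the chemokine receptor CX3CR1 fell (-1.03, adjusted p = 0.02) and 13 were not called (median -0.34). At an unadjusted p under 0.05, 2 microglia markers were lower and 2 higher, the latter being the complement genes C1QA (0.66, SE 0.22) and C1QB (0.67, SE 0.25). The list had summed levels of 420 and 377 CPM in the controls and 298 and 363 CPM after sevoflurane. Of the 15 neuron markers (median 0.01) and 12 endothelial markers (median -0.03), 0 were called by edgeR, DESeq2 or limma-voom. At an unadjusted p under 0.05 there were 0 neuron markers, with the vesicle protein SYT1 nearest (0.24, SE 0.11), and 1 endothelial marker, the junction protein ESAM (-0.61). With 1 library left out, 1 neuron marker was called without control replicate 2 and 2 without control replicate 3. The part of these cells in the levels of ITPR2, FYN and TNS3 was not tested.

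Of 22 genes of the same families as the 10 markers, 17 were tested, with a median log2 fold change of -0.11. Of these, 0 were called by edgeR's quasi-likelihood test or limma-voom, 1 by DESeq2 and 4 were at an unadjusted p under 0.05, all lower. ENPP2, autotaxin, an enzyme of lysophosphatidic acid synthesis that oligodendrocytes make, came closest. It had 84.5 and 128 CPM in control replicates 2 and 3, against 44.1 and 56.6 CPM in sevoflurane replicates 2 and 3. Its log2 fold change was -1.07 (SE 0.21, adjusted p = 0.0716 by edgeR). ENPP2 was called by DESeq2 (adjusted p = 0.000329). Among the closest relatives PDGFRB, the second receptor for platelet-derived growth factor, had -0.02, ITPR1 had -0.01, and GPR37L1, the astrocyte relative of GPR37, had -0.47 (adjusted p = 0.278). TNS1 and TNS2, relatives of TNS3, had -0.41 (adjusted p = 0.283 by edgeR) and -0.51 (0.206). Of 14 ligands and partners, which include PDGFA, the ligand of the PDGFRA receptor, and PSAP, a proposed ligand of GPR37, 0 were called by edgeR, DESeq2 or limma-voom and 1 was at an unadjusted p under 0.05 (median -0.01). That gene was CSK, a kinase that inhibits FYN (-0.39, adjusted p = 0.483 by edgeR). PDGFA had -0.33 (SE 0.21, adjusted p = 0.677) and PSAP 0.01 (SE 0.12, adjusted p = 0.989).

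The genes with the pattern most like that of the markers were sought among 11516 other genes with a symbol and a mean of at least 5 CPM, by the Euclidean distance between centred log2 CPM over the 4 libraries. MYRF (0.109), MOG (0.113), UGT8 (0.156) and AQP1 (0.181) were the nearest to BCAS1. MOG, MYRF and UGT8 are genes of oligodendrocytes, and AQP1, a water channel, had -1.60 (adjusted p = 0.0844 by edgeR). MAML2, NTM, STKLD1, TCEANC and SEPT10 were nearest to the mean of the 10 markers, at distances of 0.058 to 0.097. None of these was called, and their log2 fold changes ran from -0.80 for TCEANC to -0.68 for SEPT10. With 4 values per gene, the distances are a description only.

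**Figure D5:**
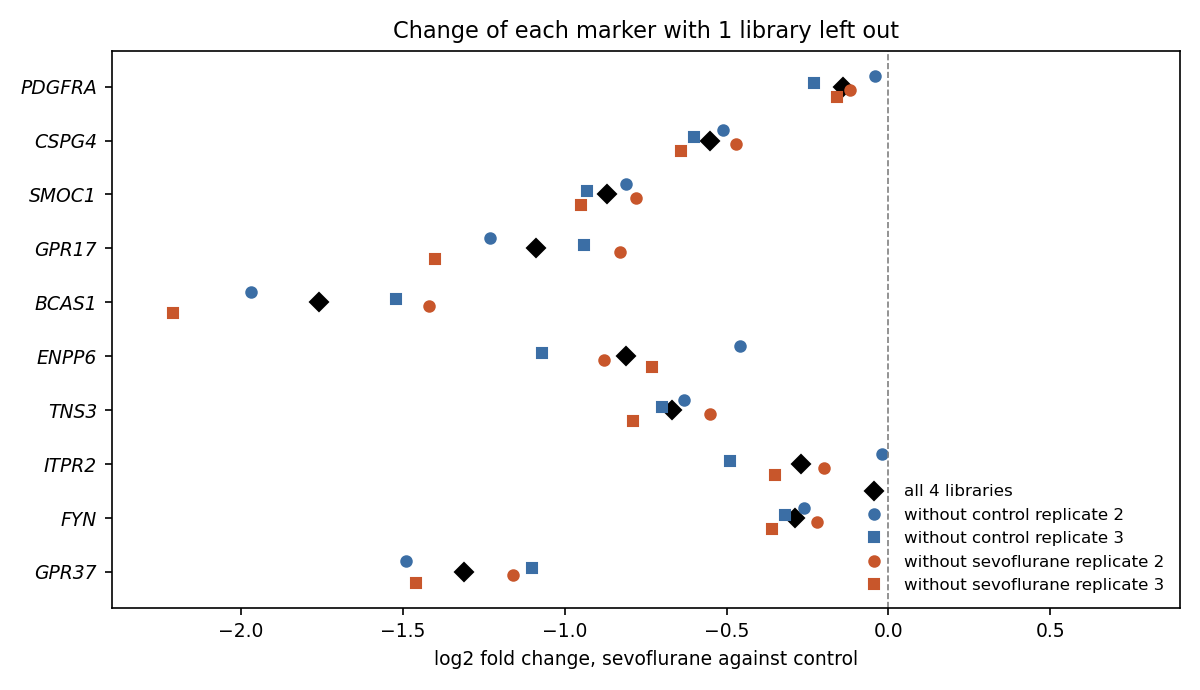
Log2 fold change of each marker, sevoflurane against control, over all 4 libraries (diamonds) and with each library left out in turn (blue for a control left out, orange for a sevoflurane library left out, circles for replicate 2, squares for replicate 3). All values lie below 0, with BCAS1 between -2.21 and -1.42, GPR37 between -1.49 and -1.10, and ITPR2 reaching -0.02.

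With 1 library left out, the direction of all 10 markers stayed the same, and the lowest and highest values were -0.23 and -0.04 for PDGFRA, -0.64 and -0.47 for CSPG4, -0.95 and -0.78 for SMOC1, and -0.36 and -0.22 for FYN. In each of these 4 fits BCAS1 had the lowest value of the 10. PDGFRA, CSPG4, ENPP6, ITPR2 and FYN were not called in any of the 4, nor under the 8 other settings of test, scaling, filter and block.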

How the data were processed

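RNA-seq of prefrontal cortex was deposited by the authors as 1 table of raw read counts per gene. Per the submitters' processing notes, HISAT2 was the aligner; no counting program, genome build, annotation or strand setting is named in the sources used here. Of 33618 genes, 8051 had no count. The counts were processed with edgeR 4.0.16 (R 4.3.3). Its filter (10 counts at the median depth, 15 in total) left 17693 genes, scaled by TMM. The group difference was tested by edgeR's quasi-likelihood test (two-sided), adjusted by Benjamini-Hochberg over all genes tested, with a threshold of 0.05. SE is the size of the log2 fold change divided by the root of F. Alternatives were DESeq2 1.42.0, limma-voom (limma 3.58.1), the likelihood ratio test, other scalings and filters (among them at least 1 CPM in 2 libraries with a mean of at least 5), the replicate number as a block, and each library left out; a group then left with 1 library was assumed to vary like the other.

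The members and lists were chosen with earlier results of these data known. All members are named, as are up to 4 called genes per list (the smallest p where none is called) and the 5 genes nearest in pattern; some single-gene results are left out here. Other genes were chosen after their values were seen. Of 177 list genes, 175 were matched by symbol and 1 by RefSeq gene number. Only names and overlaps between genes came from RefSeq's table (T2T-MMU8v2.0), since the authors' build is not known. In it BCAS1, ENPP6, TNS3 and ITPR2 also overlap non-coding genes. In counts simulated for 2 libraries per group at these depths, with the spread estimated from these data, 46.9% of genes changed 2-fold were called. Of those changed 4-fold 83.7% were called, with 9 calls among the unchanged of 17288 genes tested.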

Additional observations from a re-analysis of the deposited data

How the results depend on the processing

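All 10 markers kept a negative log2 fold change under the 8 other settings and with each library left out. The total of genes called was 106, against totals of 60 with no filter, 279 by DESeq2, 441 by the likelihood ratio test and 511 with the replicate block. Of the 106 genes, these settings kept 60, 105, 106 and 106. With 1 library left out, the total was 145 to 283. Of the 10 markers, 2 were called, against 1 with no filter (BCAS1), and 5 by DESeq2, by the likelihood ratio test and with the replicate block (BCAS1, GPR37, GPR17, SMOC1 and TNS3 in each). With 1 library left out, 2 to 3 were called. The total of list genes called was 24, against totals of 43 with the replicate block and 25 to 39 with 1 library left out. The cause of these shifts was not tested. Leaving out a library raised the total of genes called, so a call in such a fit is not added support. The replicate numbers are not stated to pair animals. Same-numbered libraries' deviations from their group means had a correlation of 0.009 over 17693 genes. With 2 libraries per group this value cannot show whether same-numbered libraries belong together, so whether the block is apt is not known. The ratio of BCAS1 to PDGFRA differed by -1.66 (log2), by -1.25 against CSPG4 and by -2.04 to -1.28 with 1 library left out. With 2 libraries per group a change near 2-fold could be missed, since the simulation recovered 46.9% of such genes. The simulation did not vary depth, so the part of depth in this was not tested.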
